A study of Mus musculus with 9 samples.

Results

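The genes described here encode the glutamate receptors of the brain and the auxiliary subunits that assemble with them. They were taken by gene symbol from the annotation of a mouse expression array, a rule that reads no measured value, although the family was picked with earlier results of these data known. The symbols cover the AMPA receptor subunits Gria1 to Gria4, the kainate receptor subunits Grik1 to Grik5, the delta receptors, the NMDA receptor subunits and the metabotropic receptors. They also cover Cacng2 to Cacng8, grouped here as the class of transmembrane AMPA receptor regulatory proteins (TARPs). Cacng6 is in that class by its symbol only, as it encodes a calcium channel subunit that is not a TARP. The rest are Shisa6 to Shisa9, Cnih2, Cnih3 and Gsg1l, which also bind AMPA receptors, and the kainate receptor partners Neto1 and Neto2. Of 42 genes that these symbols could name, 38 were found among the 19505 named genes and 22206 probe sets of the array, each with 1 probe set. The 38 genes comprised 16 ionotropic subunits, 6 metabotropic receptors and 16 auxiliary subunits.

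Glutamate is the main excitatory transmitter of the brain. AMPA receptors carry the fast synaptic current, NMDA receptors admit calcium when a synapse and its target cell are active together, kainate receptors tune release and excitability, and metabotropic receptors act through G proteins. Auxiliary subunits do not form the pore but set how many AMPA or kainate receptors reach the synapse and how fast they open, close and desensitise.

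Gene signals were measured in 3 groups of 3 arrays, all from male mice labelled as brain, with the brain region not stated. The wild type vehicle group was of the C57BL/6JHamSlc-+/+ genotype, and the ob/ob vehicle group was of the C57BL/6JHamSlc-ob/ob genotype, which lacks functional leptin in every cell and is obese. The ob/ob VE group was of that same ob/ob genotype and received VE, an extract of Vigna umbellata (rice bean), by oral gavage at 100 mg/kg body weight for 42 days. The mice were 6 weeks old when they arrived, had 1 week of acclimatization, and ate standard chow throughout. There was no wild type group given VE, so the extract was compared only within the ob/ob genotype. The labels do not say whether each array came from a separate mouse, and if they did not, the p-values measure the spread between arrays alone.

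Values are log2 signals, so a difference of 1 is a 2-fold change, and a gene was called when its limma adjusted p over all 22206 probe sets was under 0.05. The second VE array stood apart from the other 8. Its correlation with them over all probe sets was 0.962 to 0.970, against 0.979 to 0.993 among the others, and the SD of its values was 2.38, where the others had 2.56 to 2.84. Brain identity was checked on 10 general neuron markers, all measured. Snap25, a protein of the synaptic vesicle fusion machinery, stood at 18.14 to 18.78 in wild type, 17.24 to 18.06 in ob/ob vehicle and 15.16 to 18.29 in VE, with the lowest value on VE array 2. Of the 38 glutamate receptor genes, 31 lay above the median level of 7.13 over all probe sets.

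In ob/ob vehicle brain, 3 of the 38 genes were called lower than in wild type and 0 were called higher, where 1.27% of all probe sets were called, 0.73% lower and 0.536% higher. At an unadjusted p under 0.05 there were 9 of 38, against 20.1% of all probe sets. The 3 genes were Cacng2 and Cacng4, both TARPs, and Grid1, the delta receptor. In VE against ob/ob vehicle, limma called 0 of the 38 genes, where 0.486% of all probe sets were called. An unadjusted p under 0.05 was reached there by 7 of 38 genes, against 13.3% of all probe sets. In VE against wild type 1 gene, Shisa6, was called lower, where 0.0991% of all probe sets were called, and 12 of 38 had an unadjusted p under 0.05, against 12.2%. The moderated F test for any difference among the 3 groups called Grid1, Shisa6 and Cnih2, with 1.07% of all probe sets called.

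These counts depended on single arrays. When ob/ob vehicle array 1, 2 or 3, wild type array 2 or 3, or VE array 3 was left out, limma called 0 of the 38 genes in ob/ob vehicle against wild type, and without wild type array 1 it called only Shisa6. Calls over all 22206 probe sets also fell, to 21 without ob/ob vehicle array 1, 98 without VE array 3 and 20 without wild type array 1. They fell to 0 without ob/ob vehicle array 2 or 3, or wild type array 2 or 3. Without VE array 2 limma called 9 of the 38, namely Grid1, Grin3a, Cacng2, Cacng4, Cacng6, Cacng7, Cacng8, Shisa6 and Cnih2, but 13.4% of all probe sets were then called. Without it 1 gene, Cacng2, was called in VE against ob/ob vehicle (1.81% of all probe sets), and 2, Shisa6 and Cnih2, in VE against wild type (0.329%). In ob/ob vehicle against wild type, VE array 2 enters only through the shared estimate of spread, while it is 1 of the 3 VE arrays in the other comparisons. In bulk tissue, fewer cells of a type and less RNA per cell cannot be told apart for any of these genes.

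**Figure D1:**
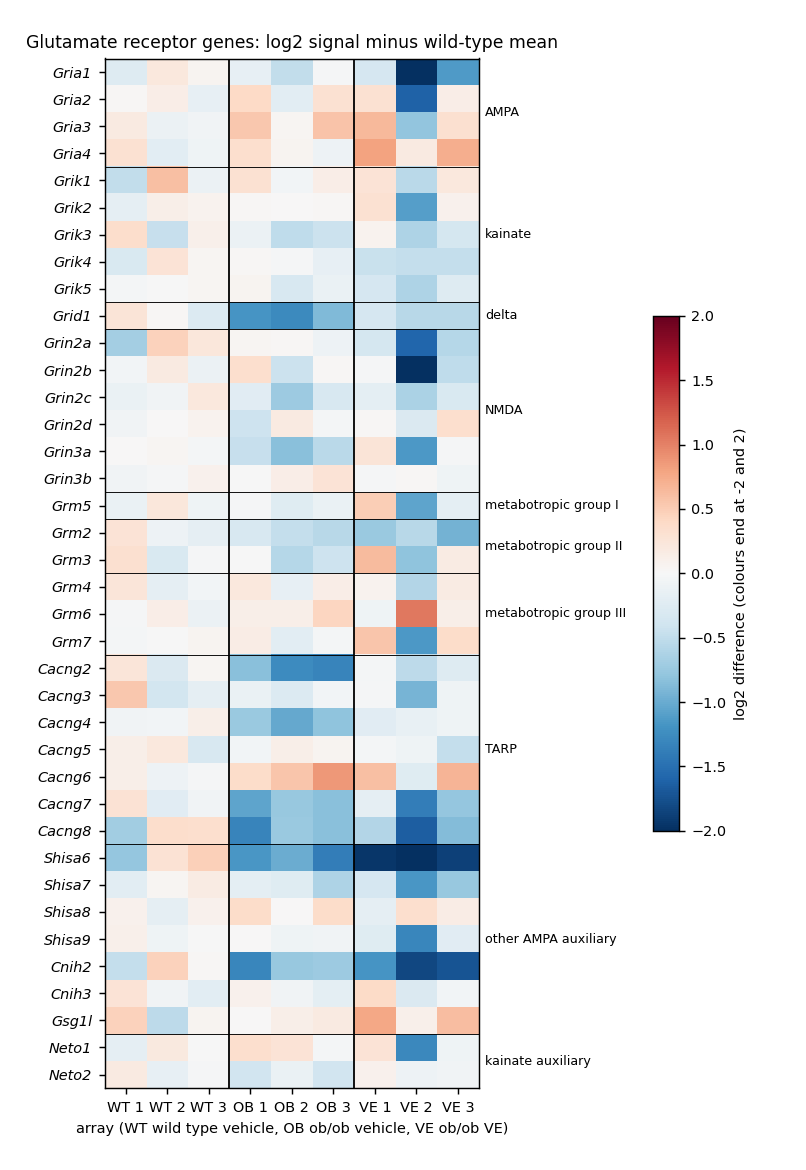
Log2 difference of each of the 38 genes (rows, by receptor class) from its wild type mean on each of the 9 arrays (columns), with blue for lower and red for higher and colours ending at -2 and 2. Cacng2, Cacng4 and Grid1 are low on all 3 ob/ob vehicle arrays, and VE array 2 is low for many genes of several classes. Shisa6 is lowest on all 3 VE arrays, and Cnih2 on VE arrays 2 and 3.

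The TARPs are close relatives of a calcium channel subunit that carry AMPA receptors to the cell surface, anchor them at the synapse and slow their closing. The class as grouped here has 7 genes, among them Cacng6, which is not a TARP. Of the 7, Cacng2 and Cacng4 were called lower in ob/ob vehicle brain, and the others were not called, with changes on both sides of 0. The median over the 7 genes of the difference from the wild type mean was 0.12, -0.10 and -0.02 on the wild type arrays, -0.75, -0.74 and -0.80 on the ob/ob vehicle arrays and -0.04, -0.52 and -0.26 on the VE arrays. Every ob/ob vehicle array thus had a lower TARP median than every other array. The median change of the 7 genes in ob/ob vehicle against wild type was -0.86, against 0.02 for all probe sets. For all probe sets above the median level it was -0.21. The median of the 7 genes was -0.50 after quantile normalization and -0.93 with arrays centred. In ob/ob vehicle against wild type 5 of the 7 had a change below 0, against 48.7% of all probe sets, and 2 were called, against 1.27%. The genes with a change below 0 all lie above the median level, and Cacng5 and Cacng6 do not. The share of all probe sets above that level with a change below 0 was not computed. An unadjusted p under 0.05 was reached by 5 of the 7, against 20.1% of all probe sets, and Cacng6, which was higher, is among them.

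Cacng2 encodes stargazin, the founding TARP, whose loss in the stargazer mouse gives absence seizures and ataxia. Its level was 12.28, 11.74 and 12.08 in wild type, 11.20, 10.78 and 10.71 in ob/ob vehicle, and 11.99, 11.51 and 11.77 in VE. All 3 ob/ob vehicle arrays lay below all 6 others, and the VE and wild type arrays overlapped. Cacng2 fell by 1.14 log2 units in ob/ob vehicle against wild type (SE 0.228, limma adjusted p 0.0400, n = 3 per group). The VE mean was 0.86 above the ob/ob vehicle mean (SE 0.228), which was not called (limma adjusted p 0.105). That difference was called without VE array 2, at 0.98 (limma adjusted p 0.0374). VE against wild type was -0.28 (limma adjusted p 0.630) and turned to 0.07 after quantile normalization.

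Cacng4 encodes another TARP that is prominent early in brain development and in glia. Its level was 10.03, 10.05 and 10.22 in wild type, 9.35, 9.07 and 9.30 in ob/ob vehicle, and 9.88, 9.95 and 10.01 in VE. The ob/ob vehicle arrays were again below all others, and the VE arrays lay slightly below the wild type arrays, without overlap. Cacng4 fell by 0.86 in ob/ob vehicle against wild type (SE 0.187, limma adjusted p 0.0463, n = 3 per group), and this call was lost after quantile normalization (-0.67, limma adjusted p 0.0940). The VE mean was 0.71 above ob/ob vehicle (SE 0.187, limma adjusted p 0.105). The difference of VE from wild type was -0.15 (limma adjusted p 0.760), and it turned to 0.11 after quantile normalization.

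The pattern of every ob/ob vehicle array below every wild type and every VE array held for 3 of the 38 genes, Grid1, Cacng2 and Cacng4, and for 2.41% of all probe sets. The same arrays of ob/ob vehicle enter both comparisons, so the change in ob/ob vehicle and the difference of VE from it are not independent.

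Cacng7 and Cacng8 had changes below 0 in ob/ob vehicle that were not called. Cacng8, the principal TARP of hippocampal synapses, stood at 10.43, 11.48 and 11.46 in wild type, 9.80, 10.38 and 10.28 in ob/ob vehicle and 10.53, 9.47 and 10.25 in VE. Its change was -0.97 in ob/ob vehicle against wild type (SE 0.330, limma adjusted p 0.136) and -1.04 in VE against wild type (limma adjusted p 0.238), and VE differed from ob/ob vehicle by -0.07 (limma adjusted p 0.951), which turned to 0.24 without VE array 2 and to 0.05 with arrays centred. Cacng7, a TARP that also acts on receptors lacking Gria2, stood at 15.06, 14.55 and 14.70 in wild type, 13.72, 14.01 and 13.94 in ob/ob vehicle and 14.59, 13.39 and 14.00 in VE. Its change was -0.88 in ob/ob vehicle against wild type (SE 0.278, limma adjusted p 0.113), and -0.50 after quantile normalization. In both genes the ob/ob vehicle and wild type arrays did not overlap, and VE array 2 was the lowest of the 9.

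The other genes of the TARP class differed from these. Cacng3, a close relative of Cacng2 expressed in cortex, had a change of -0.16 in ob/ob vehicle against wild type, which turned to 0.17 after quantile normalization. Cacng5 had a change of 0.04 there, and -0.04 after quantile normalization. Cacng6, which is dim on this array, was the only one of the 38 genes with all ob/ob vehicle arrays above all wild type arrays (5.31, 5.5 and 5.81 against 5.07, 4.85 and 4.93), where 15.8% of all probe sets showed that order. Its change of 0.59 was not called (limma adjusted p 0.221). By the RefSeq gene order, Cacng4 and Cacng5 are neighbours on chromosome 11 with 0 protein-coding genes between them, and Cacng7, Cacng8 and Cacng6 are neighbours on chromosome 7. In ob/ob vehicle against wild type the changes were -0.86 for Cacng4 beside 0.04 for Cacng5, and -0.97 for Cacng8 beside 0.59 for Cacng6. The neighbours Cacng7 and Cacng8 had like changes, of -0.88 and -0.97. Cacng5 and Cacng6 have means of 6.89 and 5.26, below the median level of 7.13.

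**Figure D2:**
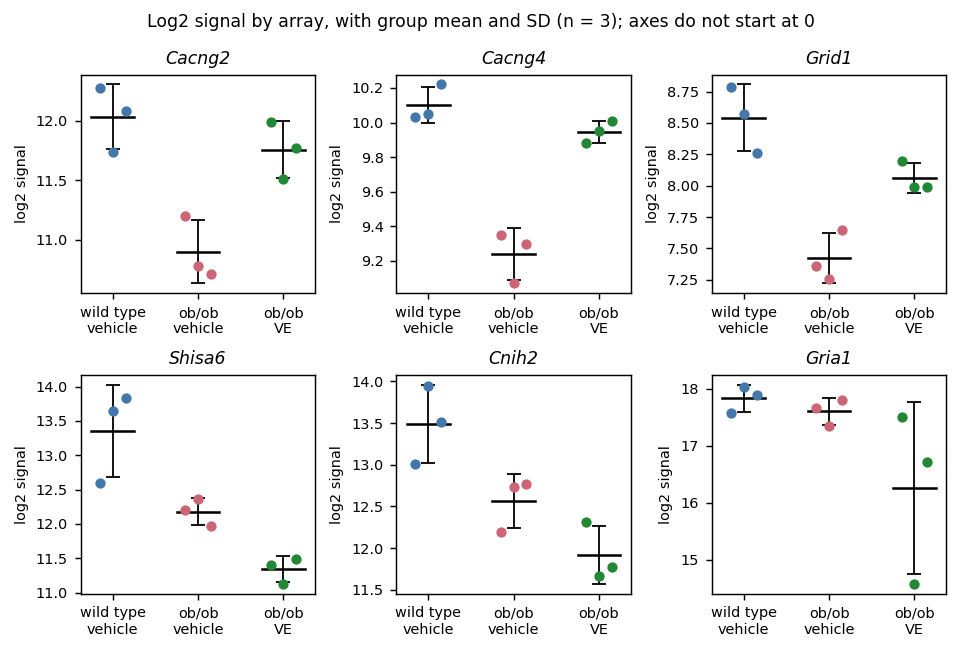
Log2 signal of Cacng2, Cacng4, Grid1, Shisa6, Cnih2 and Gria1 on each array (points) with the group mean (line) and SD (bar, n = 3), on axes that do not start at 0, for wild type vehicle, ob/ob vehicle and ob/ob VE. Cacng2, Cacng4 and Grid1 are lowest in ob/ob vehicle, Shisa6 and Cnih2 step down from wild type to VE, and Gria1 spreads in VE from 14.58 to 17.50.

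The promoters of Cacng2 and Cnih2 are shown because they belong to genes with opposite order of the VE and ob/ob vehicle means, and because the RefSeq table (GRCm38.p6) held both. The 250 bases before each start site are printed 5′ to 3′ on the gene's strand, from chr15:78119281-78119530 (minus strand) for Cacng2 and chr19:5098522-5098771 (minus strand) for Cnih2. Capitals mark a GC box, searched as GGGCGG on both strands. Grid1, Cacng4 and Shisa6 had no entry.

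Cacng2: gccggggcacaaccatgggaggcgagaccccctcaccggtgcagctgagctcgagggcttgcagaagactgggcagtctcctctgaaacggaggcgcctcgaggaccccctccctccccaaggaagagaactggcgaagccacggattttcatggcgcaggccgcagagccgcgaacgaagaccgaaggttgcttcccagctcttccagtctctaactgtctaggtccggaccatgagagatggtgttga

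Cnih2: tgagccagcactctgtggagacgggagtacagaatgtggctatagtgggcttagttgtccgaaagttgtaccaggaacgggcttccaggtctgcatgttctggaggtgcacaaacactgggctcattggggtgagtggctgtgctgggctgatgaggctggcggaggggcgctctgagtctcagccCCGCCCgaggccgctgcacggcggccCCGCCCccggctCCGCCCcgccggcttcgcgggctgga

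The Cacng2 window held 0 GC boxes and the Cnih2 window held 3, with a GC content of 62.0% and 65.6%. A GC box was found in 15 of the 27 windows (55.6%) of the 24 genes with an entry outside chromosome 18. It was found in 32.7% of all 32851 windows of the same length, whose median GC content was 52.4% against 62.4% for these genes. Chromosome 18, where Neto1 lies, was left out for these genes, while the count over all windows had no such limit. The table also gave the shares of all windows with CCAAT (33.8%), TGACG (17.8%) and TATAAA (12.4%), each on both strands. Of these, the Cacng2 window held none and the Cnih2 window held 1 CCAAT. These are matches of letters and not binding sites.

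Shisa6, a membrane protein that holds AMPA receptors at the synapse and keeps them from desensitising, had its lowest values in VE. Its level was 12.59, 13.65 and 13.83 in wild type, 12.20, 12.37 and 11.97 in ob/ob vehicle, and 11.41, 11.13 and 11.49 in VE. The 3 groups did not overlap, with every VE array below every ob/ob vehicle array and these below every wild type array. Shisa6 was the only one of the 38 genes with that order, which 0.311% of all probe sets had. Shisa6 fell by 2.01 in VE against wild type (SE 0.291, limma adjusted p 0.0429, n = 3 per group). The steps were -1.18 from wild type to ob/ob vehicle (SE 0.291, limma adjusted p 0.0648) and -0.84 from ob/ob vehicle to VE (SE 0.291, limma adjusted p 0.225), neither called. The call against wild type held without VE array 2 (-1.91, limma adjusted p 0.0119) but was lost after quantile normalization (-1.66, limma adjusted p 0.167), and without any single ob/ob vehicle array, wild type array 2 or 3, or VE array 3. In each of these settings without the call, 0 of all 22206 probe sets were called in VE against wild type. The call was also lost with the replicate number as a block, where 2 of all probe sets were called. It was lost after quantile normalization of the 8 arrays without VE array 2 (19 of all probe sets called) and with the 2 groups alone (0 called).

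Cnih2, a cornichon that accompanies AMPA receptors out of the endoplasmic reticulum and slows their kinetics, had group means in the same order. Its level was 13.01, 13.95 and 13.51 in wild type, 12.19, 12.73 and 12.77 in ob/ob vehicle, and 12.31, 11.67 and 11.77 in VE. Wild type lay above both ob/ob groups, while VE array 1 lay within the ob/ob vehicle range. The F test called Cnih2 (limma adjusted p 0.0406). Its changes were -0.93 in ob/ob vehicle against wild type (SE 0.277, limma adjusted p 0.0985; -0.62 after quantile normalization) and -1.57 in VE against wild type (SE 0.277, limma adjusted p 0.0587). Without VE array 2 the latter was called (-1.45, limma adjusted p 0.0378).

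Its relative Cnih3 showed no such order, with 10.93 to 11.40 in wild type, 10.94 to 11.22 in ob/ob vehicle and 10.84 to 11.52 in VE. Shisa7, which also binds GABA-A receptors, was -0.75 in VE against wild type (SE 0.240, limma adjusted p 0.238; -0.47 after quantile normalization) and its VE arrays, from 10.30 to 11.13, lay below all wild type arrays, from 11.26 to 11.63. Shisa9, known as CKAMP44, a dentate gyrus protein that speeds desensitisation, stood at 10.25 to 10.44 in wild type, 10.26 to 10.35 in ob/ob vehicle and 9.04 to 10.11 in VE. Its change in VE against wild type was -0.59 (SE 0.266, limma adjusted p 0.394), and -0.24 without VE array 2. Gsg1l, a negative modulator of AMPA receptors, was 0.50 in VE against wild type (limma adjusted p 0.473), and Shisa8, which is dim, stood at 4.74 to 5.30 over all arrays. Over the 7 genes of this class the median change in VE against wild type was -0.59, and it was -0.24 without VE array 2.

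**Figure D3:**
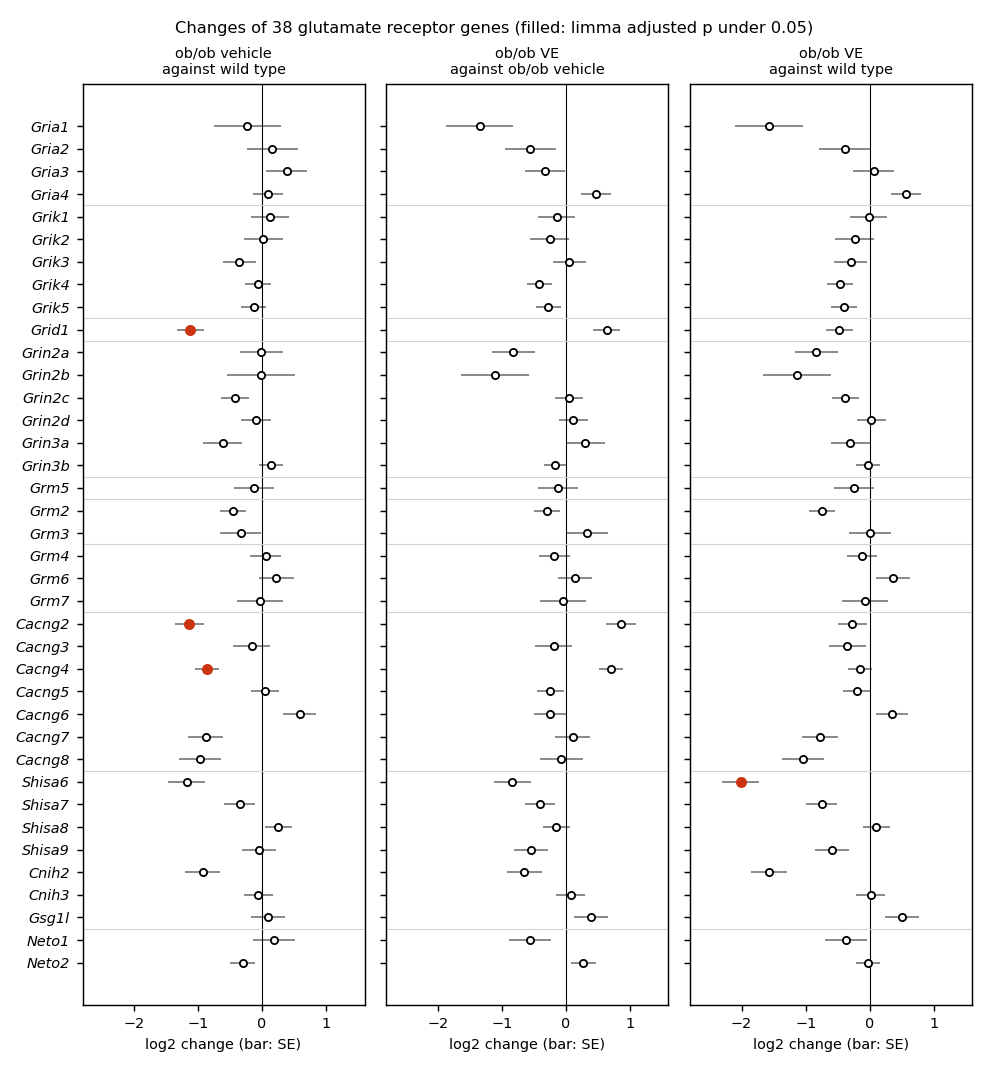
Log2 change with its SE for each of the 38 genes in the 3 comparisons, with filled markers for called genes. The 3 called genes of ob/ob vehicle against wild type (Cacng2, Cacng4, Grid1) and the 1 of VE against wild type (Shisa6) all lie below 0, and none is called in VE against ob/ob vehicle.

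Grid1 encodes a delta receptor, which has the fold of an ionotropic glutamate receptor but works as a postsynaptic organiser that binds cerebellins released from the presynaptic side. Its level was 8.79, 8.57 and 8.26 in wild type, 7.36, 7.26 and 7.65 in ob/ob vehicle, and 8.2, 7.99 and 7.99 in VE. The 3 groups did not overlap, with VE between the others. Grid1 fell by 1.12 in ob/ob vehicle against wild type (SE 0.210, limma adjusted p 0.0366, n = 3 per group) and by the F test the groups differed (limma adjusted p 0.0491). The VE mean was 0.64 above ob/ob vehicle (SE 0.210, limma adjusted p 0.2) and VE was -0.48 against wild type (limma adjusted p 0.381). The change in ob/ob vehicle was -1.08 after quantile normalization.

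Among the cerebellins on the list of receptor partners, Cbln2 had the smallest unadjusted p of that list in VE against ob/ob vehicle. Its level was 9.64, 8.39 and 8.90 in wild type, 8.24, 7.06 and 7.27 in ob/ob vehicle, and 9, 8.98 and 9.40 in VE. All ob/ob vehicle arrays lay below all others. Its change was -1.45 in ob/ob vehicle against wild type (SE 0.343, limma adjusted p 0.0578) and 1.6 in VE against ob/ob vehicle (limma adjusted p 0.0598, SE 0.343), neither called. The other 2 measured cerebellins had changes of 0.29 (Cbln1, limma adjusted p 0.670) and 0.47 (Cbln4, limma adjusted p 0.292) in ob/ob vehicle against wild type.

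None of the 4 AMPA receptor subunits was called in any comparison. Gria1 encodes the subunit delivered to synapses during potentiation, and its level was 17.58, 18.04 and 17.89 in wild type, 17.67, 17.35 and 17.81 in ob/ob vehicle, and 17.50, 14.58 and 16.71 in VE. The VE arrays were spread widely and VE array 2 was far the lowest. The change in VE against wild type was -1.57 (SE 0.525, limma adjusted p 0.256), and -0.73 without VE array 2 (limma adjusted p 0.276). Against ob/ob vehicle the VE mean was -1.35 (limma adjusted p 0.279), and -0.51 without that array.

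Gria2, whose edited RNA makes the receptor impermeable to calcium, stood at 14.89 to 15.18 in wild type, 14.83 to 15.44 in ob/ob vehicle, and 15.35, 13.43 and 15.18 in VE. Gria3 stood at 14.40, 14.10 and 14.14 in wild type, 14.76, 14.25 and 14.78 in ob/ob vehicle and 14.86, 13.43 and 14.53 in VE. Its change of 0.38 in ob/ob vehicle against wild type was not called (SE 0.317, limma adjusted p 0.520), and became a called rise of 0.71 after quantile normalization (limma adjusted p 0.0419). Gria4, a subunit of fast receptors in interneurons and relay neurons, stood at 10.11 to 10.62 in wild type, 10.22 to 10.65 in ob/ob vehicle and 10.50 to 11.12 in VE. The median over the 4 genes in ob/ob vehicle against wild type was 0.13, while that of the 7 genes of the TARP class was -0.86, and the difference between the classes was not tested.

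**Figure D4:**
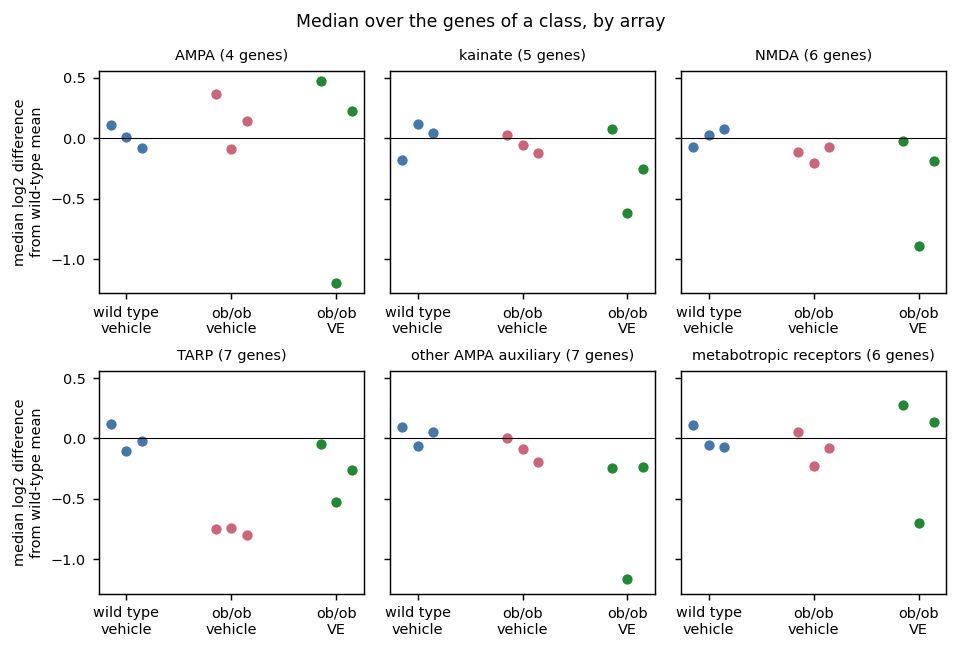
Median over the genes of a class of the log2 difference from the wild type mean, for each of the 9 arrays. The TARP panel has all 3 ob/ob vehicle arrays lowest, at -0.75, -0.74 and -0.80, while VE array 2 is the lowest array in the AMPA, kainate, NMDA, other AMPA auxiliary and metabotropic panels.

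None of the 6 NMDA receptor subunits measured was called. Grin2a, the subunit that dominates mature synapses, stood at 12.52, 13.65 and 13.42 in wild type, 13.24, 13.22 and 13.09 in ob/ob vehicle, and 12.84, 11.61 and 12.63 in VE. All VE arrays lay below all ob/ob vehicle arrays, as in 11.9% of all probe sets. The change was -0.82 in VE against ob/ob vehicle (limma adjusted p 0.303, SE 0.335), and -0.45 without VE array 2. Grin2b, the subunit of developing and extrasynaptic receptors, stood at 15.24, 15.48 and 15.18 in wild type, 15.64, 14.87 and 15.33 in ob/ob vehicle, and 15.27, 12.45 and 14.79 in VE. Its change in VE against ob/ob vehicle was -1.11 (limma adjusted p 0.391), and -0.25 without VE array 2.

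Grin3a, which lowers calcium entry and holds synapses immature, stood at 8.47, 8.51 and 8.43 in wild type, 8.01, 7.64 and 7.93 in ob/ob vehicle, and 8.72, 7.32 and 8.45 in VE. The ob/ob vehicle arrays lay below the wild type arrays without overlap, and VE array 2 was the lowest of the 9. The change in ob/ob vehicle against wild type was -0.61 (SE 0.303, limma adjusted p 0.278), which was called without VE array 2. Grin2c, Grin2d and Grin3b are dim here, at 5.71 to 6.69 over the 9 arrays.

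None of the 5 kainate receptor subunits was called. Grik2, a principal pore-forming kainate subunit, stood at 12.75, 13.04 and 12.99 in wild type, 12.95, 12.93 and 12.95 in ob/ob vehicle, and 13.23, 11.82 and 13.02 in VE. The groups overlapped but for VE array 2. Grik4, a high-affinity subunit that needs a partner such as Grik2, stood at 9.57, 10.14 and 9.91 in wild type, 9.89, 9.85 and 9.71 in ob/ob vehicle, and 9.43, 9.39 and 9.39 in VE. The 3 VE arrays were the lowest of the 9 and close to each other. The change was -0.47 in VE against wild type (SE 0.201, limma adjusted p 0.375; -0.23 after quantile normalization) and -0.41 in VE against ob/ob vehicle (limma adjusted p 0.400, SE 0.201). Grik3, a low-affinity presynaptic subunit, stood at 9.82, 9 and 9.57 in wild type, 9.35, 8.95 and 9.03 in ob/ob vehicle and 9.54, 8.84 and 9.11 in VE, with overlap among all groups.

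Neto1 and Neto2, which slow kainate receptor gating, were not called. Neto1 stood at 12.59, 12.97 and 12.76 in wild type, 13.11, 13.04 and 12.74 in ob/ob vehicle, and 13.05, 11.48 and 12.69 in VE, and only VE array 2 lay apart. Neto2 stood at 10.80, 10.46 and 10.60 in wild type, 10.23, 10.48 and 10.24 in ob/ob vehicle, and 10.70, 10.52 and 10.55 in VE. All VE arrays of Neto2 lay above all ob/ob vehicle arrays, as in 4.62% of all probe sets, with a difference of 0.27 (SE 0.192, limma adjusted p 0.578).

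None of the 6 metabotropic receptors measured was called. Grm2, a presynaptic receptor that lowers transmitter release, stood at 11.74, 11.36 and 11.28 in wild type, 11.14, 10.98 and 10.91 in ob/ob vehicle, and 10.72, 10.91 and 10.51 in VE. Wild type lay above both ob/ob groups. The change was -0.75 in VE against wild type (SE 0.207, limma adjusted p 0.188) and -0.45 in ob/ob vehicle against wild type (SE 0.207, limma adjusted p 0.246). After quantile normalization these were -0.43 and -0.20. Grm3, its relative on neurons and astrocytes, stood at 12.32, 11.69 and 11.97 in wild type, 11.98, 11.42 and 11.58 in ob/ob vehicle, and 12.63, 11.19 and 12.16 in VE, with overlap throughout.

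Grm5, the group I receptor that raises calcium through phospholipase C, stood at 11.48, 11.84 and 11.53 in wild type, 11.60, 11.37 and 11.49 in ob/ob vehicle, and 12.11, 10.56 and 11.42 in VE. The VE arrays held both the highest and the lowest value. Among the group III receptors, which inhibit adenylyl cyclase, Grm7 stood at 11.10, 11.13 and 11.20 in wild type, 11.29, 10.94 and 11.11 in ob/ob vehicle, and 11.70, 9.99 and 11.51 in VE. Grm4 stood at 8.86, 8.44 and 8.57 in wild type, 8.83, 8.46 and 8.75 in ob/ob vehicle and 8.69, 8.03 and 8.78 in VE. Grm6, the receptor of retinal bipolar cells, is dim here and was highest on VE array 2, at 7.74 against 6.58 to 7.12 on the other 8 arrays.

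Over all 38 genes, 25 had a change below 0 in ob/ob vehicle against wild type, against 48.7% of all probe sets. The median change was -0.08, and it turned to 0.12 after quantile normalization. The median of the 31 genes above the median level was -0.13, and that of all probe sets there was -0.21. In VE against wild type 29 had a change below 0, against 58.7% of all probe sets, and the median was -0.29, which became -0.057 without VE array 2. In VE against ob/ob vehicle 24 did, against 58% of all probe sets, with a median of -0.16 that turned to 0.10 without VE array 2. Groups did not overlap in ob/ob vehicle below wild type for 10 of the 38 genes (17.5% of all probe sets), in VE below wild type for 11 (11.5%), in VE below ob/ob vehicle for 4 (11.9%) and in VE above ob/ob vehicle for 4 (4.62%).

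Subunit pairs were compared as a difference within each array, which an equal shift of all values of an array leaves alone but a narrower spread of its values does not. The Gria2 minus Gria1 difference was -3 to -2.51 in wild type, -2.52 to -2.23 in ob/ob vehicle and -2.15 to -1.15 in VE. The VE arrays lay above all others. The change was 1.18 in VE against wild type and 0.79 in VE against ob/ob vehicle, each with a two-sided exact permutation p of 0.1, the smallest that 3 against 3 arrays allow (adjusted 0.45 over 9 comparisons of 3 pairs). After quantile normalization these changes were 0.68 and 0.33. In ob/ob vehicle against wild type it was 0.39 (two-sided exact permutation p 0.2, adjusted 0.6). For Grin2a minus Grin2b, an index of the subunit switch in maturing synapses, and for Grm3 minus Grm2, the changes ran from 0.01 to 0.75 with two-sided exact permutation p from 0.4 to 1. Grm3 minus Grm2 was 0.33 to 0.69 in wild type, 0.44 to 0.84 in ob/ob vehicle, and 1.91, 0.28 and 1.65 in VE. Without VE array 2 its change was 1.25 in VE against wild type and 1.13 in VE against ob/ob vehicle. These differences show unequal change of 2 genes and not which of them is more abundant.

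Other genes of glutamate signalling, from lists chosen with earlier results of these data known, were examined beside the receptors. Over all probe sets above the median level, the median change in ob/ob vehicle against wild type was -0.21. Of 28 measured genes for receptor assembly, trafficking and clustering, 24 had a change below 0 in ob/ob vehicle against wild type (48.7% of all probe sets), the median change was -0.48, and 1 was called (1.27% of all probe sets). This was Nptx1, a secreted pentraxin that clusters AMPA receptors, which stood at 9.98, 10.55 and 10.54 in wild type, 9.39, 9.18 and 9.14 in ob/ob vehicle and 9.97, 9.60 and 9.32 in VE. Nptx1 fell by 1.12 in ob/ob vehicle against wild type (SE 0.234, limma adjusted p 0.0426). Prrt1, an AMPA receptor component also called SynDIG4, was -1.17 there (SE 0.262, limma adjusted p 0.0504) and -1.24 in VE against wild type (limma adjusted p 0.0883), neither called. The other 2 comparisons had 0 of the 28 called by limma, with 4 and 10 at an unadjusted p under 0.05 (13.3% and 12.2% of all probe sets) and medians of -0.01 and -0.51.

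Of 14 measured genes of metabotropic coupling, all 14 had a change below 0 in ob/ob vehicle against wild type, where 48.7% of all probe sets did. The median was -0.34, and 1 was called, against 1.27% of all probe sets. All 14 lie above the median level, where the median change over all probe sets was -0.21. Elfn1, a postsynaptic protein that recruits presynaptic group III receptors, stood at 9.35, 8.94 and 9.13 in wild type, 8, 7.99 and 7.69 in ob/ob vehicle and 8.77, 8.29 and 8.45 in VE. Elfn1 fell by 1.25 in ob/ob vehicle against wild type (SE 0.211, limma adjusted p 0.0284), and VE stood 0.61 above ob/ob vehicle (limma adjusted p 0.223). The other 2 comparisons had 0 calls by limma, with 3 at an unadjusted p under 0.05 in VE against ob/ob vehicle (13.3% of all probe sets, list median 0.08) and 7 in VE against wild type (12.2% of all probe sets, list median -0.44).

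Of 24 measured postsynaptic scaffold genes, which anchor receptors under the membrane, 21 had a change below 0 in ob/ob vehicle against wild type, against 48.7% of all probe sets. The medians were -0.33 for ob/ob vehicle against wild type, -0.10 for VE against ob/ob vehicle and -0.47 for VE against wild type, and limma called 0 in each, with 4, 3 and 9 at an unadjusted p under 0.05, against 20.1%, 13.3% and 12.2% of all probe sets. The smallest p were those of Dlgap1 (-0.77, limma adjusted p 0.125), Shank1 (-0.85, limma adjusted p 0.171) and Camk2b (-1.39, limma adjusted p 0.127) in the same order. Of 14 measured genes of vesicle loading, uptake and synthesis of glutamate, limma also called 0 in each, with 5, 3 and 3 at an unadjusted p under 0.05 (the same shares of all probe sets apply) and medians of -0.28, -0.01 and -0.19. In these, Got1 was -1.19 in ob/ob vehicle against wild type (SE 0.298, limma adjusted p 0.0660). Slc17a6, the vesicular transporter of subcortical neurons, was 0.90 in VE against ob/ob vehicle (limma adjusted p 0.159, SE 0.271), and Slc1a3, an astrocyte uptake transporter, was -1.04 in VE against wild type (SE 0.223, limma adjusted p 0.0911).

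The GABA and glycine receptor genes, the inhibitory counterpart, numbered 23 measured. Their median change was -0.19 in ob/ob vehicle against wild type, 0.01 in VE against ob/ob vehicle and -0.01 in VE against wild type. Gabarap, which links GABA-A receptors to microtubules and acts in autophagy, was the only call, lower in ob/ob vehicle against wild type (-1.28, SE 0.217, limma adjusted p 0.0284). That is 1 of 23, where 0.73% of all probe sets were called lower. In that comparison 15 of the 23 had a change below 0, against 48.7% of all probe sets. An unadjusted p under 0.05 was reached by 3, 4 and 2 genes in the 3 comparisons in the same order, against 20.1%, 13.3% and 12.2% of all probe sets. The difference between this family and the glutamate receptor genes was not tested.

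Markers of cell types and regions moved with the groups, and their part in the receptor results was not tested. For each list the mean difference of its genes from the wild type mean is given as the range over the arrays of a group. For 10 general neuron markers, all with a change below 0 in ob/ob vehicle against wild type, it was -0.09 to 0.17 in wild type, -1.01 to -0.35 in ob/ob vehicle and -1.94 to -0.11 in VE. For 8 thalamus markers it was -0.20 to 0.23, -0.86 to -0.57 and -0.50 to -0.18, so that the ob/ob vehicle arrays were lowest, as for Cacng2, Cacng4 and Grid1. Tcf7l2 (-2.33, limma adjusted p 0.0117) and Rgs16 (-1.05, limma adjusted p 0.0467) were called among them in ob/ob vehicle against wild type, where 0.73% of all probe sets were called lower. Not all 8 had this order. In ob/ob vehicle against wild type 7 had a change below 0, and in VE against ob/ob vehicle 2 did. Prkcd had its lowest mean in VE, at 10.51 against 10.94 in ob/ob vehicle and 11.26 in wild type. For 7 hippocampus and dentate gyrus markers the range was -0.28 to 0.15, -0.52 to -0.22 and -0.83 to -0.68. VE was thus lowest, as for Shisa6 and for the group means of Cnih2. Limma called 0 of these 7. An unadjusted p under 0.05 was reached by 2, 2 and 4 in the 3 comparisons, against 20.1%, 13.3% and 12.2% of all probe sets. In VE against ob/ob vehicle 6 of the 7 had a change below 0, by little for C1ql2 (means 7.91 and 7.96). Prox1, a transcription factor of dentate granule cells, had the smallest p of that list, at -1.70 in VE against wild type (SE 0.313, limma adjusted p 0.0634).

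For 7 excitatory forebrain markers the range was -0.06 to 0.07 in wild type, -1.01 to -0.15 in ob/ob vehicle and -1.98 to -0.18 in VE, and for 8 interneuron markers it was -0.20 to 0.16, -0.59 to -0.40 and -0.64 to -0.02. For 6 striatum markers it was -0.08 to 0.09, -0.36 to 0.39 and 0.09 to 1.76, so that VE was highest. For 10 astrocyte markers it was -0.07 to 0.07, -0.92 to -0.51 and -0.96 to -0.31, with Gfap, Aqp4 and Sox9 called lower in ob/ob vehicle against wild type. For 9 oligodendrocyte markers it was -0.48 to 0.43, -1.35 to -0.77 and -1.68 to -0.52, with Cldn11 called lower there. Over all probe sets, 0.73% were called lower in ob/ob vehicle against wild type. No receptor value was corrected for these lists.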

How the data were processed

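RNA from 9 brain samples was hybridized to Clariom S mouse arrays. The authors deposited log2 signals, which Transcriptome Analysis Console 4.0.2 had computed by RMA after a signal space transformation, per the design text and the submitters' processing notes. Adipose tissue and the 50 mg/kg dose that the design text mentions are not analysed here.

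Group means were fitted over all 9 arrays to these values by limma (version 3.58.1, R 4.3.3; 6 residual and 7.03 prior degrees of freedom), with Benjamini-Hochberg adjustment over 22206 probe sets and a call at 0.05. Sequencing depth does not apply, and 3 arrays per group limit the precision. Of the probe sets, 19572 carried 1 gene symbol, 2634 none and 0 several, from the platform annotation. The scripts were tested on simulated data. No 2 arrays shared more than 1.69% of equal values. Whether same-numbered arrays belong together could not be settled: 4 of 9 pairs had a correlation of deviations over 0.1 (-0.03 to 0.33).

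The glutamate receptor genes and the gene and marker lists were chosen with earlier results of these data known. Per-array values are given for called genes, for the gene of each class with the smallest p or the highest mean, and for some others chosen after their values were seen. List genes that are named were called or had the smallest p of a list in a comparison, except Snap25 and, beside Cbln2, Cbln1 and Cbln4. Not every list gene that meets this is named. The lists not described above had, in ob/ob vehicle against wild type, 1 of 9 microglia, 2 of 8 choroid plexus and 1 of 7 Purkinje cell genes called, and 0 by limma of 6 oligodendrocyte precursor, 8 endothelial, 8 cerebellar granule cell, 9 hypothalamus and 5 olfactory bulb genes, with 3, 0, 4, 2 and 0 at an unadjusted p under 0.05 (20.1% of all probe sets). Over all probe sets limma called 1.27% in ob/ob vehicle against wild type. In the other 2 comparisons limma called 0 marker genes, and 0.486% and 0.0991% of all probe sets. Alternatives were quantile normalization, centring of arrays, trend and robust moderation, array weights, probe sets above the median level or with 1 symbol, a block for the replicate number, a fit of just the 2 groups compared, each array left out, the authors' rule of the design text (p under 0.05 and a fold over 1.1) and adjusted p under 0.1. Quantile normalization of the 8 arrays without VE array 2 was added after the data were seen.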

Additional observations from a re-analysis of the deposited data

How the results depend on the processing

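The number of the 38 genes called in ob/ob vehicle against wild type (3) was 9 with array weights, 8 with the 2 groups alone, 5 after quantile normalization of the 8 arrays without VE array 2, 9 by the authors' rule and 5 at adjusted p under 0.1, and 0 to 9 with an array left out. With array weights 16.2% of all probe sets were called in that comparison, and 20.1% by the authors' rule. Of the 22206 probe sets, 2626 were called with the 2 groups alone and 1970 after quantile normalization of those 8 arrays. With an array left out, 0 to 2975 probe sets were called. For VE against ob/ob vehicle (0 by limma) the number of the 38 genes was 1 after quantile normalization, Cacng2, 8 with array weights (14.9% of all probe sets), 7 by the authors' rule (13.3%), and 0 to 1 with an array left out. Of the 22206 probe sets, 324 were called there after quantile normalization and 0 to 403 with an array left out. For VE against wild type (1) the number of the 38 genes was 0 after either quantile normalization, 13 with array weights (14.8% of all probe sets), 2 among probe sets above the median level, 0 with the 2 groups alone, 12 by the authors' rule (12.2%), 2 at adjusted p under 0.1, and 0 to 3 with an array left out. Over all probe sets, 0 and 19 were called there after the 9-array and 8-array quantile normalization. Of 11103 probe sets above the median level 49 were called, and 0 with the 2 groups alone. With an array left out it was 0 to 158. By the F test (3) the number of the 38 genes was 5 with arrays centred, among probe sets above the median level or at adjusted p under 0.1, 17 with array weights, 8 after quantile normalization of 8 arrays, 11 by the authors' rule, and 0 to 8 with an array left out. An unadjusted F test p under 0.05 was reached by 19% of all probe sets. The shares of all probe sets in the other F test settings, and at adjusted p under 0.1, were not computed. With the replicate number as a block, the calls over all probe sets in ob/ob vehicle against wild type went from 281 to 251. In VE against wild type, limma then called 0 of the 38 genes and 2 of all probe sets. The arrays do not settle whether this pairing is real (5 of 9 correlated best with their own number). The median change in ob/ob vehicle against wild type (-0.08) was 0.12 after either quantile normalization, -0.15 with arrays centred and -0.15 to -0.0625 with an array left out. In VE against ob/ob vehicle (-0.16) it was -0.30 to 0.10 with an array left out, and in VE against wild type (-0.29) it was -0.012 after quantile normalization. Over all probe sets, 42.3% of calls in ob/ob vehicle against wild type were higher, against 60.4% after quantile normalization, 27% with arrays centred and 53.1% in 8 quantile-normalized arrays. In VE against ob/ob vehicle 2.78% were higher, against 18.5% after quantile normalization.

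Some values turned sign; the cause was not tested. Grin2a minus Grin2b was -0.065 after quantile normalization in ob/ob vehicle against wild type, and with an array left out ran from -0.30 to 0.18 there, from -0.20 to 0.60 in VE against ob/ob vehicle and from -0.19 to 0.60 in VE against wild type. Grm5 was 0.13 in ob/ob vehicle against wild type after either quantile normalization. In VE against ob/ob vehicle it was 0.094 after quantile normalization of 8 arrays and -0.50 to 0.28 with an array left out. In VE against wild type it was 0.031 and 0.23 after the 9-array and 8-array quantile normalization, and -0.63 to 0.15 with an array left out. Grm4 in VE against ob/ob vehicle was 0.083 with array weights, 0.00083 after quantile normalization of 8 arrays and -0.32 to 0.055 with an array left out. Cacng2 and Cacng4 in VE against wild type were 0.067 and 0.11 after quantile normalization. Neto1 in VE against wild type was 0.21 after quantile normalization of 8 arrays and -0.69 to 0.10 with an array left out. Among 664 alternative values of 37 changes followed for single genes, 582 kept their direction and side of the threshold, 33 lost a call, 35 gained one and 14 turned sign. A planned subunit pair with Grm5 was not run.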
